A study of Mus musculus with 3 samples.

Results

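Interferon gamma (IFN-γ), the chains of its receptor and its nearest regulators were examined in immune cells of the inflamed sciatic nerve. They comprise 6 genes of the 32285 gene rows deposited: Ifng, Ifngr1, Ifngr2, Jak2, Socs1 and Irf1. The genes were chosen by name from the known pathway and not by a rule on their values. Earlier results of these data were known when they were chosen. All 6 were detected, and all 6 passed the filter on low counts in the comparisons between cell types. The data are single-cell RNA sequencing of CD45+ (immune) cells, which had been isolated by flow cytometry from the sciatic nerve of NOD.AireGW/+ mice with neuropathy. Such mice carry 1 partial loss-of-function allele of Aire, a regulator of immune tolerance, on the autoimmunity-prone NOD strain, and they develop spontaneous inflammation of peripheral nerves. They received no treatment named in the labels, the study's methods state that female mice were used, and no age of these mice is given in the sources used here. A single mouse gave library 1, another gave library 2, and library 3 pooled 2 mice, whose cells could not be told apart. All 3 libraries belong to the same group and there was no group of controls, so cell types were compared within libraries and no effect of disease was tested. In sums of cells, a gene with fewer transcripts per cell and a gate with fewer cells that make it cannot be told apart.

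IFN-γ is the signature cytokine of type 1 immunity. It is secreted by activated T cells, natural killer (NK) cells and some gamma delta T cells, and it binds a receptor made of a ligand-binding chain, encoded by Ifngr1, and a signalling chain, encoded by Ifngr2. The kinase JAK1 sits on the first chain and JAK2 on the second, and together they start a signal to the nucleus that induces genes such as Irf1, a transcription factor that extends the response. Socs1 is also induced and encodes an inhibitor of the JAK kinases, which closes a negative feedback loop. In T cells the signalling chain is known to be regulated and limiting, whereas macrophages are classic responders to IFN-γ.

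On GRCm38, the mm10 genome build used by the authors, the GENCODE annotation places all 6 as protein-coding genes. Ifng lies at chr10:118441046-118445892 and Ifngr1 at chr10:19591949-19610229, both on the plus strand. Ifngr2 lies at chr16:91547072-91565623 on the plus strand and Socs1 at chr16:10782240-10785536 on the minus strand. Jak2 lies at chr19:29251828-29313080 and Irf1 at chr11:53770014-53778374, both on the plus strand.

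Promoter windows, from 250 bases before to 50 bases after each gene start (RefSeq, GRCm38.p6), were searched on both strands for 2 motifs. The GAS element, known from promoters of IFN-γ-induced genes, was written TTCNNNGAA, and the core of the ISRE that IRF proteins and ISGF3 bind was written GAAANNGAAA. The first occurred in 8.30% of all 32851 windows and the second in 3.44%. Irf1 and Ifng held a GAS match, Socs1 held a pair of overlapping ISRE cores, and neither was found in the windows of Ifngr1, Ifngr2 and Jak2 or in a second window of Irf1. The stretches with the matches are shown with the motif in capitals, 5′ to 3′ on the gene's strand. Those of Irf1 and Socs1 sit at induced genes of the pathway. That of Ifng sits at the gene of the cytokine itself, at the edge of the window. A match is a description of letters and not a sign of binding. The Irf1 stretch is chr11:53769904-53769952, plus strand, with the match from 90 to 82 bases upstream of the start. The Socs1 stretches are chr16:10785590-10785639 and chr16:10785584-10785633, minus strand, with matches from 83 to 74 and from 77 to 68 bases upstream. The Ifng stretch is chr10:118440796-118440825, plus strand, with the match from 249 to 241 bases upstream.
Irf1 GAS: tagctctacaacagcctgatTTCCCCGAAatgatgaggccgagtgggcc
Socs1 first ISRE core: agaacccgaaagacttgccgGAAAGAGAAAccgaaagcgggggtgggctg
Socs1 second ISRE core: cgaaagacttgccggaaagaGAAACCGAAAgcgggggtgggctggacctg
Ifng GAS: tTTCAGAGAAtcccacaagaatggcacagg

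Cells were assigned to 9 gates by unique molecular identifiers (UMIs, each counting 1 captured transcript) of marker genes that included none of the 6. The T cell gates needed at least 2 UMIs of Cd3d, Cd3e and Cd3g together. They were split into CD4 T cells (Cd4 without Cd8a, Cd8b1 or Foxp3), CD8 T cells, Foxp3 T cells and gamma delta T cells. NK cells, B cells, C1q macrophages, Ly6c2 monocytes and conventional dendritic cells had lists of their own. Of 3848, 8256 and 1533 filtered cells in libraries 1 to 3, 62.1%, 59.0% and 45.4% entered a gate, and the median filtered cell held 3956, 4632.5 and 1726 UMIs, so library 3 was the least precise. Library 2 stood apart in holding 1876 gated macrophages, against 7 in library 1 and 4 in library 3. Of 27 sums of cells by gate and library, 24 held at least 10 cells and were used, and macrophages were therefore described in library 2 only and gamma delta T cells in libraries 1 and 2. Marker genes outside the gate rules were highest in their own gate for Cd40lg (CD4), Gzmk (CD8), Ikzf2 (Foxp3), Gzma (NK), Cd163l1 (gamma delta), Pax5 (B), Trem2 (macrophage), Ccr2 (monocyte) and Batf3 (dendritic). Icos and Cd5, checked for CD4 cells, were higher in Foxp3 cells, and Tyrobp (NK) and H2-Ab1 (dendritic) were highest in macrophages. Between 7 and 36 cell barcodes were shared by any 2 libraries, at most 0.917% of the smaller one.

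Levels are given as CPM, counts per 1000000 UMIs, over the UMIs of all cells of that gate in a library. Ifng was highest in CD4 T cells, at 285, 302 and 265 CPM in libraries 1 to 3, and came next in CD8 T cells, at 165, 238 and 186 CPM. In each library the CD4 value was above the CD8 value, and the ranges over libraries did not overlap. The difference did not pass the test, with a log2 difference of CD8 minus CD4 of -0.44 (SE 0.27, 95% interval -0.97 to 0.09, edgeR quasi-likelihood test with Benjamini-Hochberg adjusted p = 0.454). With every cell thinned to 1000 UMIs before summing, the same difference was -0.55 and passed (adjusted p = 0.0455). Foxp3 T cells held 53.5, 54.0 and 48.3 CPM of Ifng, below every CD4 and CD8 value. Their log2 difference from CD4 T cells was -2.51 (SE 0.32, edgeR adjusted p = 8.87e-06).

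Innate lymphocytes held less Ifng on average and varied more. NK cells held 29.9, 42.4 and 0 CPM, where the 0 came from 17 cells and 3 UMIs would have been 64.5 CPM. Gamma delta T cells held 10.5 CPM in library 1 (2 UMIs in 32 cells) and 171 CPM in library 2 (106 UMIs in 111 cells), so the libraries disagreed. In library 2, 3 gamma delta cells with at least 10 Ifng UMIs held 43.4% of the UMIs of that gate. The mean of the NK and gamma delta gates lay below the mean of the CD4 and CD8 gates by a log2 difference of -2.04 (SE 0.31, edgeR adjusted p = 3.12e-05). The direction was the same in every library, but in library 3 NK cells alone stood on the innate side, with 0 UMIs in 17 cells. Without library 2 the difference was -3.77 (adjusted p = 2.20e-08). Against CD8 T cells alone, gamma delta T cells did not pass the test (log2 difference of CD8 minus gamma delta 0.97, adjusted p = 0.262, 2.59% of genes called), whereas NK cells did (2.68, adjusted p = 0.000478, 6.09% called).

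Ifng was at or near 0 in the other gates. B cells held 5 Ifng UMIs in library 1 and none in libraries 2 and 3, or 2.23, 0 and 0 CPM. Monocytes held 5.63, 0.855 and 0 CPM, dendritic cells 5.35, 0 and 0 CPM, and library 2 macrophages 0.500 CPM. Beside them, in library 1 the Ifng level of monocytes was 3.41% of that of CD8 T cells, and that of Trac, which encodes the T cell receptor alpha chain, was 3.63%. In library 2 macrophages the corresponding shares were 0.210% and 0.555%. These Ifng shares were not above those of the T cell transcript Trac in the same gates, with the exception of library 1 dendritic cells, whose 1 Ifng UMI made 3.25% against 1.73% for Trac. The B, macrophage, monocyte and dendritic gates allowed at most 1 UMI of Cd3d, Cd3e and Cd3g together. This limits T cell RNA in them, and so lowers the Trac shares here and below.

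**Figure D1:**
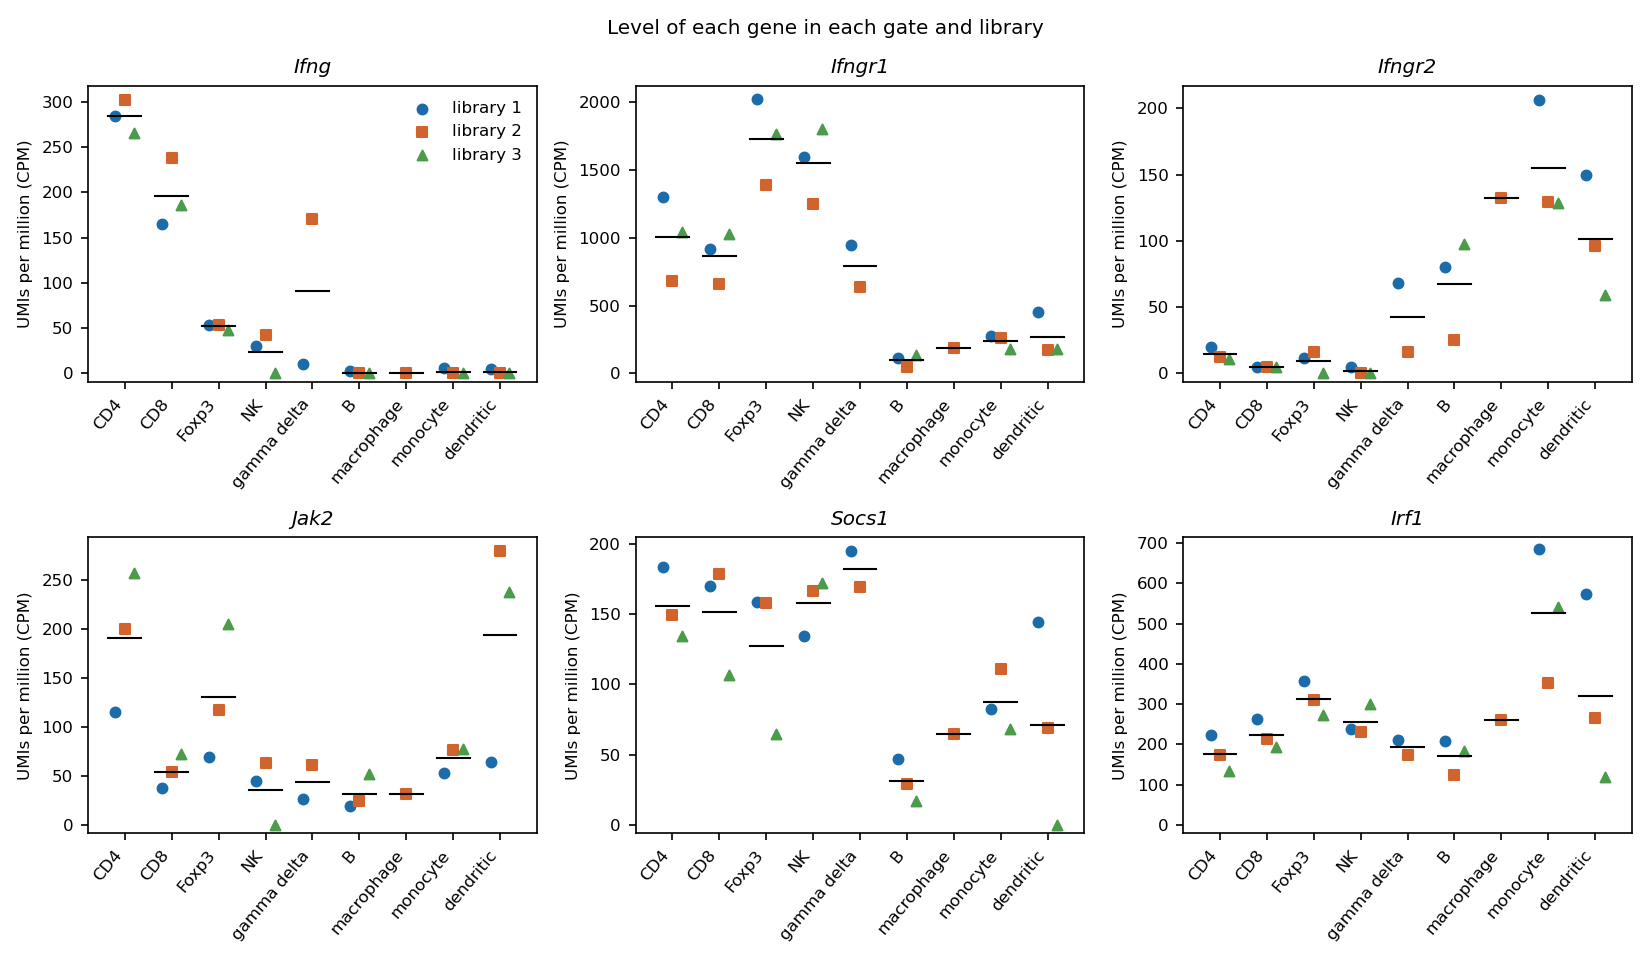
Level of each of the 6 genes (y axis, CPM, linear and with its own range in each panel) in 9 gates (x axis), with 1 point per library and a black bar at the mean of the libraries used. Ifng sits between 265 and 302 CPM in CD4 T cells and below 6 CPM in every B, macrophage, monocyte and dendritic sum, while Ifngr2 shows the opposite arrangement, with 129 to 207 CPM in monocytes and 4.50 to 4.99 CPM in CD8 T cells.

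The share of cells with an Ifng UMI depends on depth, so each cell was thinned to 1000 UMIs and shallower cells were left out (138 of the CD4 and 119 of the CD8 T cells). The share was 17.2%, 18.4% and 11.6% of CD4 T cells in libraries 1 to 3 (15.7% ± 3.61, SD, n = 3 libraries) and 13.1%, 17.2% and 11.1% of CD8 T cells (13.8% ± 3.16). It was 3.26% ± 0.941 of Foxp3 T cells and 3.66% ± 4.11 of NK cells. As a background for free RNA, 0.312% ± 0.540 of B cells held an Ifng UMI, with 3 of 321, 0 of 337 and 0 of 76 cells, and 0 of 337 cells allows a share of up to 0.890%. Monocytes had 0 of 64, 0 of 198 and 0 of 31 cells. Both gates left out cells with more than 1 UMI of Cd3d, Cd3e and Cd3g together, which keeps this background low. The shares in CD4 and CD8 T cells overlapped, and both lay above the B cell shares in all libraries. Without thinning, the shares were 24.7% of CD4 and 29.2% of CD8 T cells, an order opposite to that of the thinned shares and of the CPM. The median gated CD8 T cell held 4083, 3332.5 and 2131 UMIs and the median CD4 T cell 2954, 2537 and 1760, so the unthinned order is not read as a difference.

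**Figure D2:**
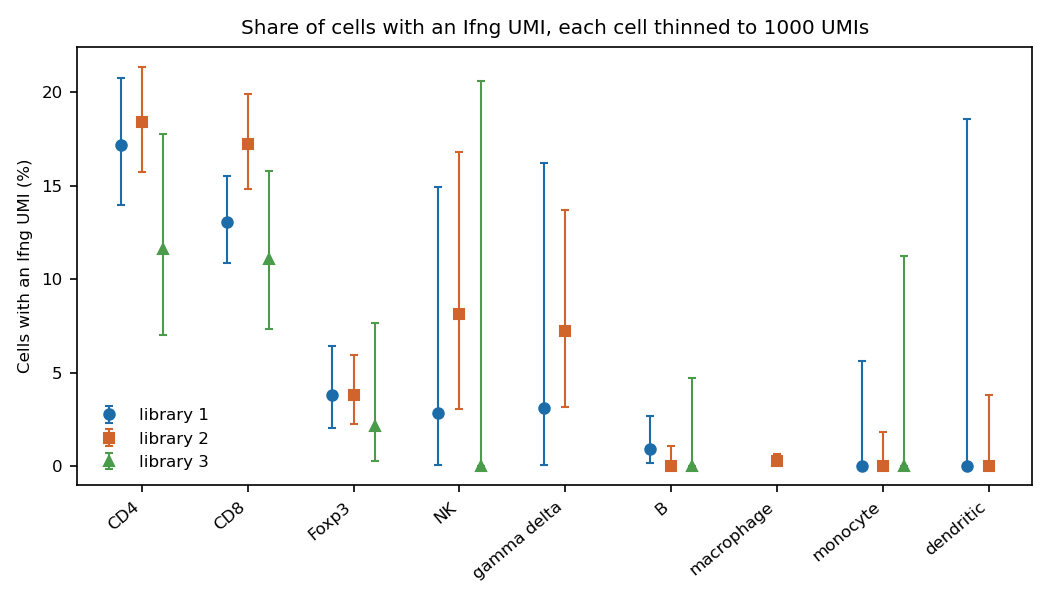
Share of cells with at least 1 Ifng UMI (y axis, %) after thinning each cell to 1000 UMIs, by gate (x axis) and library, with exact 95% binomial intervals that cover counting error only. CD4 and CD8 T cells lie between 11.1% and 18.4%, Foxp3 T cells between 2.17% and 3.81%, and the widest intervals belong to NK, gamma delta and dendritic sums of few cells.

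A small number of cells carried a large part of the Ifng message. The median Ifng-positive CD4 T cell held 2 Ifng UMIs in each library, and the highest held 76, 24 and 14 UMIs in libraries 1 to 3. Cells with 10 or more UMIs numbered 8, 19 and 3 and held 36.3%, 32.2% and 38.4% of the Ifng UMIs of the CD4 gate. In the CD8 gate 10, 16 and 1 such cells held 16.6%, 25.4% and 14.5%. Over a whole library, CD4 T cells contributed 26.1%, 22.5% and 26.3% of all Ifng UMIs, CD8 T cells 35.5%, 25.8% and 33.0%, and Foxp3 T cells 3.68%, 3.17% and 3.19%. Cells in no gate held 33.9%, 45.0% and 37.2%. In library 2 most of this came from 1394 cells that met the T cell list but also held more than 1 UMI of the B cell or myeloid lists, with 28.0% of the Ifng UMIs of the library. In library 3 most came from 606 cells of the T cell list with no UMI of Cd4, Cd8a, Cd8b1 or Foxp3, with 30.9%.

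Within the T cell gates Ifng varied with other markers, given here as values without a test. CD4 T cells with an Il21 UMI (IL-21 is a helper cytokine) held 961 and 541 CPM of Ifng in libraries 1 and 2, against 158 and 239 CPM in CD4 T cells without one, and library 3 had only 8 such cells. CD8 T cells with a UMI of Havcr2, an inhibitory receptor of chronically stimulated cells, held 263, 344 and 514 CPM. CD8 T cells with Gzmk and without Havcr2 held 117, 206 and 152 CPM, lower in each library. Cxcr6-positive CD4 T cells held 302, 428 and 580 CPM and Cxcr6-negative ones 271, 257 and 232 CPM. The part of the depth of each cell in these splits was not tested.

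The receptor chains were arranged in opposite directions. Ifngr1, the ligand-binding chain, was highest in Foxp3 T cells (2021, 1392 and 1763 CPM) and NK cells (1598, 1250 and 1805 CPM). It followed in CD4 T cells (1302, 680 and 1045 CPM), CD8 T cells (915, 659 and 1029 CPM) and gamma delta T cells (947 and 638 CPM). Dendritic cells (450, 172 and 178 CPM), monocytes (274, 258 and 180 CPM) and library 2 macrophages (188 CPM) held less, and B cells held the least (111, 44.7 and 138 CPM). Every T and NK sum lay above every myeloid and B sum. Monocytes held 30.0%, 39.2% and 17.5% of the Ifngr1 level of CD8 T cells in libraries 1 to 3, where Trac stood at 3.63%, 0.699% and 0% of its own CD8 level. The same shares in B cells were 12.1%, 6.79% and 13.4% for Ifngr1 and 1.44%, 0% and 2.55% for Trac. Of the neighbours in this order, gamma delta and dendritic cells differed (edgeR adjusted p = 0.00037, with 20.9% of all genes called), as did macrophages and B cells (adjusted p = 0.000289, 40.9% called), the latter resting on 1 macrophage sum, and no other neighbours passed the test. Foxp3 T cells were above CD4 T cells in every library, with a log2 difference of 0.74 (SE 0.22) and an edgeR adjusted p of 0.0676, which missed the threshold. In 6 of 13 alternative settings, DESeq2 among them, it was below 0.05. Foxp3 T cells differed from CD8 T cells (log2 difference of CD8 minus Foxp3 -0.81, adjusted p = 0.0132, 11.6% of genes called). After thinning to 1000 UMIs, an Ifngr1 UMI was seen in 80.8% ± 6.0 of Foxp3 T cells, 53.6% ± 6.35 of CD4 T cells, 17.7% ± 1.38 of monocytes and 13.5% ± 4.14 of B cells.

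Ifngr2, the signalling chain, was highest in monocytes (207, 129 and 129 CPM), library 2 macrophages (132 CPM) and dendritic cells (150, 95.8 and 59.5 CPM), followed by B cells (80.7, 25.1 and 97.6 CPM). CD4, CD8 and Foxp3 T cells held less than 20 CPM in each library. CD4 T cells held 19.8, 12.5 and 10.7 CPM, Foxp3 T cells 11.5, 16.3 and 0 CPM, and CD8 T cells 4.99, 4.53 and 4.50 CPM. NK cells held 1 UMI in library 1 and none in the others, with 9.08 CPM as the level of 3 UMIs in library 2. Gamma delta T cells were uneven, with 68.4 CPM in library 1 (13 UMIs) and 16.1 CPM in library 2 (10 UMIs). B and gamma delta cells differed (edgeR adjusted p = 0.0252, 18.6% of genes called), as did Foxp3 and CD8 T cells (adjusted p = 0.0374), and the other neighbours in this order did not pass the test.

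Myeloid RNA in the T cell sums was compared with these low values. In CD4 T cells Ifngr2 reached 9.61%, 9.66% and 8.34% of its monocyte level in libraries 1 to 3, whereas Lyz2, an abundant monocyte and macrophage transcript, reached 0.277%, 2.62% and 0.0535% of its monocyte level. In CD8 T cells Ifngr2 reached 2.41%, 3.51% and 3.50%, and Lyz2 0.0799%, 1.01% and 0.120%. The Ifngr2 share was above the Lyz2 share in each of these sums, and in library 2, which held the macrophages, they lay closest. The same shares of B cells were 39.1%, 19.4% and 76.0% for Ifngr2 and at most 0.434% for Lyz2. The monocyte gate itself required Lyz2, which raises its Lyz2 level and lowers all of these Lyz2 shares. RNA from B cells, which held Ifngr2 and little Lyz2, would not show in the Lyz2 shares of T cells.

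Few cells showed UMIs of both chains at this depth. After thinning, 0.742% of CD4 T cells (mean of libraries) held UMIs of both Ifngr1 and Ifngr2, with 0.713% as the product of the separate shares. Among monocytes 2.79% held both, with 2.01% as the product, from 2, 4 and 1 cells in libraries 1 to 3. Among dendritic cells 6.08% held both, with 4.20% as the product. That share came from 2 of 18 cells in library 1 and 1 of 95 in library 2, so it is imprecise. Across the 24 sums of gate and library, the log2(CPM + 1) values of the chains, centred within library, had a Pearson correlation of -0.81. This is a description over sums that share libraries and mice.

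**Figure D3:**
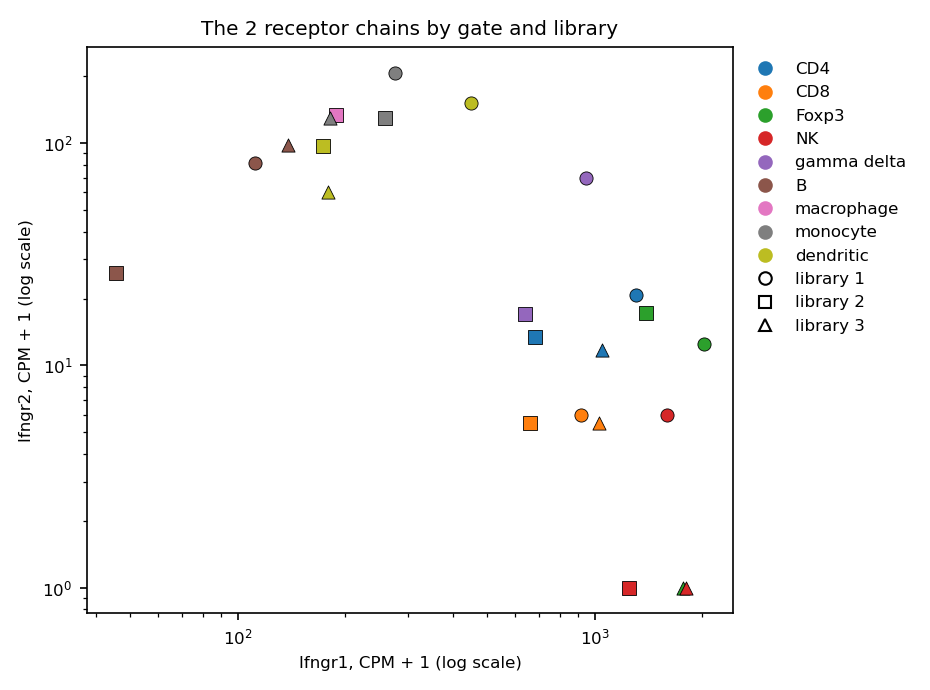
Ifngr2 level (y axis, CPM + 1, log scale) against Ifngr1 level (x axis, CPM + 1, log scale) in 24 sums, with colour for the gate and shape for the library. T and NK sums lie to the right, at 638 CPM of Ifngr1 or more, and myeloid and B sums to the upper left, at 450 CPM or less, and sums with no Ifngr2 UMI lie on the bottom line.

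Jak2, the kinase of the signalling chain, was highest in dendritic cells (64.3, 279 and 238 CPM) and CD4 T cells (115, 200 and 257 CPM). Foxp3 T cells held 69.1, 118 and 205 CPM, monocytes 52.6, 76.1 and 77.1 CPM and CD8 T cells 37.5, 53.9 and 72.0 CPM. Library 1 held the lowest value in each of these 5 gates, so the spread between libraries was shared by gates. NK cells (44.8, 63.6 and 0 CPM), gamma delta T cells (26.3 and 61.2 CPM), B cells (19.6, 24.4 and 51.7 CPM) and library 2 macrophages (31.7 CPM) held less. No neighbours in this order differed. Dendritic cells differed from every gate except CD4 T cells (edgeR, adjusted p of 0.309 for CD4 and at most 0.00347 for the other 7). In those 7 pairs between 11.3% and 32.6% of all genes were called. Dendritic cells held the highest value in library 2 only. In library 1 they lay below CD4 and Foxp3 T cells, and in library 3 below CD4 T cells, on 8 UMIs in 11 cells. In library 2, 35 dendritic cells with Ccr7 and Fscn1, genes of mature migrating dendritic cells, held 485 CPM of Jak2, and the other libraries had fewer than 10 such cells.

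Socs1, the inhibitor, lay between 64.4 and 195 CPM in every T and NK sum. It stood at 184, 149 and 134 CPM in CD4 T cells, 170, 179 and 106 CPM in CD8 T cells, 158, 158 and 64.4 CPM in Foxp3 T cells, 134, 166 and 172 CPM in NK cells and 195 and 169 CPM in gamma delta T cells. Monocytes (82.6, 111 and 68.5 CPM), dendritic cells (145, 68.7 and 0 CPM, the last from 11 cells) and macrophages (64.3 CPM) followed, and B cells held 46.8, 28.8 and 17.2 CPM. Only the last neighbours, macrophages and B cells, differed (edgeR adjusted p = 0.0487, resting on 1 macrophage sum).

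Irf1, the transcription factor, was present in every gate. Monocytes held 685, 353 and 540 CPM, dendritic cells 573, 265 and 119 CPM, Foxp3 T cells 357, 309 and 274 CPM, macrophages 260 CPM and NK cells 239, 230 and 301 CPM. CD8 T cells held 263, 213 and 193 CPM, gamma delta T cells 210 and 174 CPM, CD4 T cells 224, 172 and 134 CPM and B cells 207, 124 and 184 CPM. Monocytes and dendritic cells differed (edgeR adjusted p = 0.0423, 11.3% of genes called), as did macrophages and NK cells (adjusted p = 0.0378, 27.7% called, on 1 macrophage sum). The fit, scaled by edgeR's library factors (TMM), gave a log2 difference of macrophages minus NK cells of 0.88. In unscaled CPM they lay closer, at 260 and 230 CPM in library 2. The fit also placed Foxp3 T cells below macrophages (-0.55, not passing the test), opposite to their CPM order. Fitted differences and unscaled CPM thus disagreed for macrophages, in size or in direction. Foxp3 T cells were above CD4 T cells in every library, with a log2 difference of 0.77 (SE 0.22, adjusted p = 0.0558). This missed the threshold, and in 7 of 13 alternative settings it was below 0.05.

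Over all 36 pairs of gates, Ifng, Ifngr1 and Ifngr2 differed in 25 pairs each, Jak2 in 17, Irf1 in 15 and Socs1 in 10. In a pair, between 1.31% and 47.1% of the 10396 genes tested were called, with a median over pairs of 26.3%, so 10 pairs of 36 for Socs1 lies near what genes in general showed. The 8 pairs with macrophages rest on library 2 alone.

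The comparisons of gate groups summarise these levels. Between CD8 and CD4 T cells, 7.88% of all genes were called (3.04% higher and 4.84% lower), and 2 of the 6 genes were, both lower in CD8 T cells: Ifngr2 (log2 difference -1.61, SE 0.41, edgeR adjusted p = 0.00963) and Jak2 (-1.67, SE 0.24, adjusted p = 1.46e-05), each in every library. The Ifngr2 call was lost without library 1 (-1.30, adjusted p = 0.241) and with thinned cells (-1.42, adjusted p = 0.0921). Ifngr1 differed by -0.07 (95% interval -0.49 to 0.36), Socs1 by 0.09 (-0.34 to 0.52) and Irf1 by 0.45 (0.03 to 0.88, adjusted p = 0.266). Between Foxp3 and CD4 T cells, 2.71% of genes were called (1.41% higher and 1.3% lower), and Ifng was the 1 gene of the 6. Jak2 was lower in Foxp3 T cells in every library (-0.70, adjusted p = 0.147), Ifngr2 differed by -0.23 (-1.01 to 0.55) and Socs1 by -0.30 (-0.74 to 0.15).

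Between the innate (NK and gamma delta) and the CD4 and CD8 gates 9.35% of genes were called (3.73% higher and 5.62% lower), and Ifng and Jak2 were lower in the innate gates (Jak2 -0.96, SE 0.27, edgeR adjusted p = 0.0211). The Jak2 call was lost without library 1 (-0.99, adjusted p = 0.0783) and without library 2 (-1.22, adjusted p = 0.0882). Ifngr1, Ifngr2, Socs1 and Irf1 did not pass, and the interval of Ifngr2 was wide (-1.76 to 1.46). The median difference over all genes was -0.14 here and -0.11 in the myeloid comparison, so differences there are relative to it.

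Between myeloid (macrophage, monocyte and dendritic) and T gates, 53.2% of genes were called (24.4% higher and 28.8% lower), and so were 5 of the 6. Ifngr2 (log2 difference 4.49, SE 0.24, edgeR adjusted p = 4.37e-15) and Irf1 (1.21, SE 0.16, adjusted p = 2.80e-07) were higher in myeloid cells. Ifng (-7.54, SE 0.43), Ifngr1 (-1.53, SE 0.18, adjusted p = 2.59e-08) and Socs1 (-0.69, SE 0.18, adjusted p = 0.00179) were lower. All 5 had 1 direction in every library, although in libraries 1 and 3 the myeloid side held monocytes and dendritic cells only. Jak2 did not pass (-0.07), and with macrophages left out, an alternative chosen after seeing the data, it was higher in myeloid cells (0.52, adjusted p = 0.0348, with 46.9% of genes called, 21.8% higher and 25.2% lower), but not without library 2 as well (0.04, adjusted p = 0.933). Without macrophages and library 2, Socs1 kept its sign and missed the threshold (-0.60, adjusted p = 0.0735).

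Between B cells and T gates 33.4% of genes were called (16.1% higher and 17.3% lower), and 5 of the 6 were again among them. Ifngr2 was higher in B cells (3.29, SE 0.27, edgeR adjusted p = 7.44e-11). Ifngr1 (-2.89, SE 0.24, adjusted p = 4.27e-11), Socs1 (-1.59, SE 0.23, adjusted p = 2.23e-06), Jak2 (-1.23, SE 0.26, adjusted p = 0.000341) and Ifng were lower. The fitted Ifng difference (-7.24) rests on 5 B cell UMIs of library 1 and was -11.63 without that library. Irf1 differed by 0.30 (95% interval -0.08 to 0.67) and did not pass. In TMM-scaled CPM it was higher in B cells in all 3 libraries (mean 228 against 188). By unscaled CPM, B cells held the lowest mean of the gates (172 CPM), so the direction depended on the scaling.

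**Figure D4:**
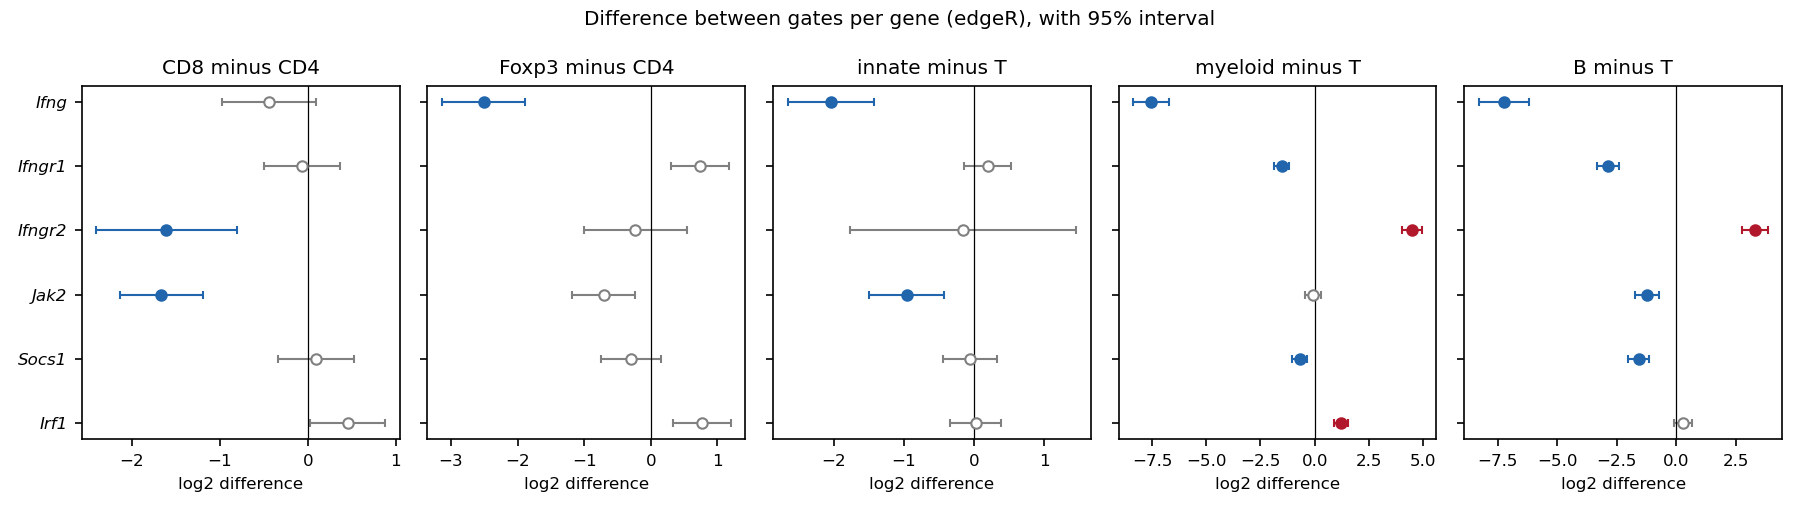
Fitted log2 difference (x axis, separate scale in each panel) of the 6 genes (y axis) in the 5 comparisons of gate groups, with 95% intervals, filled red where higher and filled blue where lower at an adjusted p under 0.05, and open grey otherwise. Ifngr2 and Ifngr1 point in opposite directions in the myeloid comparison (4.49 and -1.53) and in the B cell comparison (3.29 and -2.89).

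CD4 and CD8 T cells with at least 1 Ifng UMI were compared with those without. Ifng itself chose the cells and was not tested. Positive cells numbered 155, 240 and 31 in the CD4 gate and 296, 327 and 49 in the CD8 gate, and they were deeper, with a median of 3215, 2894 and 2331 UMIs against 2805.5, 2395 and 1657 in the CD4 gate, and 4608, 3735 and 2383 against 3882, 3213 and 2073 in the CD8 gate.

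Ifngr1 was lower in the cells with Ifng. In CD4 T cells it stood at 900, 465 and 1007 CPM with Ifng and 1466, 811 and 1055 CPM without, in libraries 1 to 3. CD8 T cells held 729, 519 and 750 CPM of Ifngr1 with Ifng and 1047, 769 and 1131 CPM without. The cells with Ifng were lower in each library and gate, by a small margin in library 3 CD4 T cells. The log2 difference was -0.62 in CD4 T cells (SE 0.12, edgeR adjusted p = 0.00190) and -0.58 in CD8 T cells (SE 0.083, adjusted p = 0.000202), and it was the 1 gene of those tested among the 6 that was called in each. In CD4 T cells 2.67% of genes were called (1.29% higher and 1.38% lower), and in CD8 T cells 6.67% (3.91% higher and 2.76% lower). The difference between these gates was 0.02 (95% interval -0.31 to 0.35, adjusted p = 1). The level was lower still in cells with more Ifng UMIs, as values without a test. CD4 T cells with 1 Ifng UMI held 1219, 594 and 1018 CPM of Ifngr1 and those with 2 or more held 705, 401 and 995 CPM. CD8 T cells with 1 held 823, 563 and 894 CPM and those with 2 or more held 660, 487 and 586 CPM.

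The call depended on how the cells were split. With every cell thinned to 1000 UMIs before the split, which moves cells with few Ifng UMIs to the negative side and leaves shallow cells out, the log2 difference was -0.37 in CD4 T cells (adjusted p = 0.224) and -0.15 in CD8 T cells (adjusted p = 0.783). In CD4 T cells the call was also lost without library 1 (-0.53, adjusted p = 0.184), without library 2 (-0.51, adjusted p = 0.0678) and with DESeq2 (-0.58, adjusted p = 0.105). In both gates it was lost when the library was not used as a block (-0.54, adjusted p = 1, and -0.60, adjusted p = 1.00). Il21-positive CD4 T cells, which were high in Ifng, held 645 and 376 CPM of Ifngr1 in libraries 1 and 2, against 1425 and 761 CPM in Il21-negative ones. Cxcr6-positive CD4 T cells, also higher in Ifng, held more Ifngr1 (1532, 915 and 1602 CPM) than Cxcr6-negative ones (1120, 596 and 986 CPM). The CD4 gate excluded Foxp3 T cells only where a Foxp3 UMI was captured. In each library Foxp3 T cells held more Ifngr1 and less Ifng than CD4 T cells. Whether Foxp3 T cells missed in this way lay on the Ifng-negative side and raised its Ifngr1 level was not tested.

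**Figure D5:**
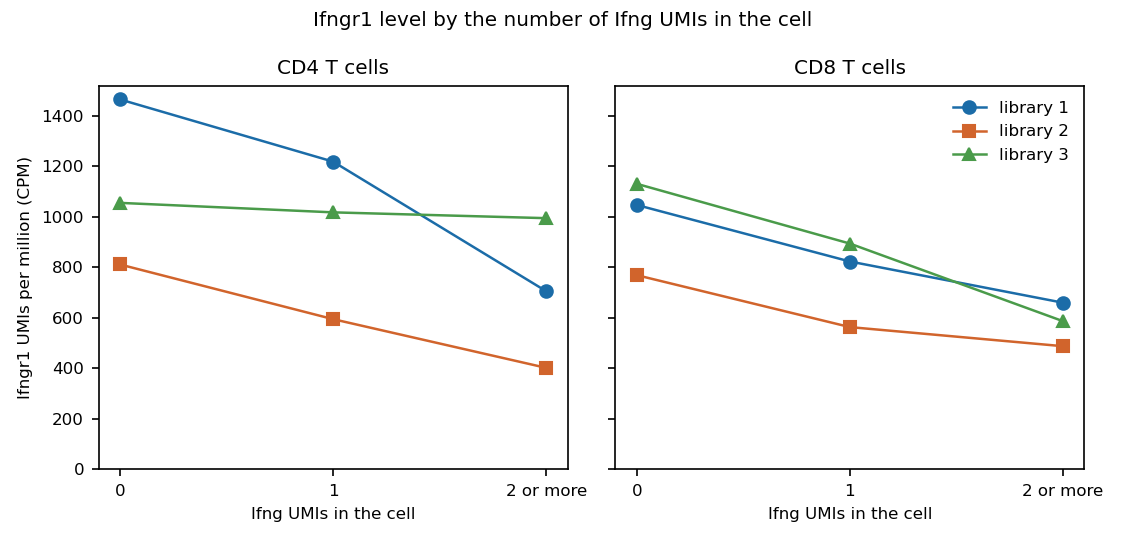
Ifngr1 level (y axis, CPM from 0) of CD4 (left) and CD8 (right) T cells by the number of Ifng UMIs in the cell (x axis), with 1 line per library. All 6 lines go down from cells with 0 to cells with 2 or more Ifng UMIs, and the library 3 CD4 line least, from 1055 to 995 CPM over 148 and 16 cells.

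The other genes did not pass this comparison. Socs1 stood at 181, 156 and 157 CPM in CD4 T cells with Ifng and 185, 145 and 128 CPM without (log2 difference 0.06, 95% interval -0.24 to 0.37), and differed by 0.06 in CD8 T cells (-0.17 to 0.29). The difference of these Socs1 differences was 0.03 (-0.37 to 0.43). Irf1 differed by -0.04 (-0.33 to 0.26) in CD4 and -0.09 (-0.30 to 0.12) in CD8 T cells, and Jak2 by -0.15 (-0.47 to 0.17) and -0.17 (-0.46 to 0.11). Ifngr2 differed by -1.11 in CD4 T cells (SE 0.44, adjusted p = 0.254), on 14 UMIs in positive cells of libraries 1 and 2 and none in library 3, and it was not tested in CD8 T cells because it failed the filter on low counts. In the test of the difference between gates, 0.101% of genes passed (9 of 8914, with 0.0112% higher and 0.0897% lower) and none of the 5 genes tested did, all at an unadjusted p above 0.05.

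The largest differences between these cells, over all genes, were these. In CD4 T cells with Ifng, Ccl3 (log2 difference 2.96) and Ccl4 (2.75), which encode chemokines, and Spp1 (2.27), which encodes osteopontin, rose, followed by Serpinf1 and Nrgn. Among CD8 T cells with Ifng, Ccl3 (2.30) and Ccl9 (2.19) rose with the division genes Birc5 (2.39), Ube2c (2.28) and Hist1h1b (2.07). CD4 or CD8 T cells with a UMI of Mki67, a further division gene, held 180, 213 and 215 CPM of Ifng in libraries 1 to 3. Those without Mki67 held 205, 275 and 214 CPM. Ifng was thus lower with Mki67 in libraries 1 and 2 and level in library 3, where 13 cells had Mki67. The Mki67 values pool CD4 and CD8 T cells and do not show CD8 T cells alone. The genes that fell most were Ifit3 (-2.25), an interferon-stimulated gene, Esm1, AB124611, Thada and Trat1 in CD4 T cells. For CD8 T cells they included S1pr1 (-2.33), which encodes a receptor that directs exit of lymphocytes from tissue, Trbv17, Gm2682 and Nsg2. All of these named genes had an edgeR adjusted p of at most 0.00345 and 1 direction in all 3 libraries. Cells with Ifng were deeper in both gates, and the part of depth in these differences was not tested. Unthinned, 194 of 7271 genes tested were called in CD4 T cells and 594 of 8911 in CD8 T cells. With every cell thinned before the split, 47 of 2149 and 91 of 2659 were called. Whether the named genes were among those called with thinned cells is not given here.

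The wider pathway was followed in 5 gene lists, with the share of all genes called in the same direction beside each count. Il12rb2, Hlx, Il15, Il27, Usp18 and a few further genes of short counts are named after their values were seen, since they did not meet the rule for naming. Of 25 IFN-γ target genes, such as the guanylate-binding proteins (Gbp), immunity-related GTPases and antigen-processing genes, 22 were tested between gates. Fcgr1, which also defined the myeloid gates, was left out of the counts, medians and sums between gates, which leaves 21. In myeloid cells 16 were higher and 2 lower than in T cells, beside 24.4% and 28.8% of all genes, with a median log2 difference of 1.08 against -0.11 over all genes. The lower ones were Gbp4 (-0.79) and Nlrc5 (-0.58). The largest were Batf2 (7.06), Cxcl9 (6.93), a ligand of CXCR3, and Cxcl16 (6.44), the ligand of CXCR6. The summed level of the list was 5153 ± 1144 CPM in monocytes (SD, n = 3), 4964 ± 747 CPM in dendritic cells, 4064 CPM in library 2 macrophages, 2058 ± 428 CPM in CD4 T cells and 1305 ± 457 CPM in NK cells. In B cells 5 were higher and 3 lower, near the 16.1% and 17.3% of all genes (median 0.10 against -0.03). The higher ones were Ciita (5.10), the master regulator of MHC class II genes, and Cd274 (1.40), which encodes PD-L1, Iigp1 (1.18), Irgm1 (0.98) and Psmb9 (0.70), and the lower ones Gbp7 (-1.02), Nlrc5 (-0.94) and Cxcl16 (-2.14). Foxp3 T cells were higher than CD4 T cells for 2 of 21, Gbp3 (1.29) and Iigp1 (1.12), beside 1.41% of all genes. CD8 T cells were lower for 1 of 21, Iigp1 (-1.88), near the 4.84% of all genes. Innate cells were lower for 3 of 21, beside 5.62% of all genes, namely Nlrc5 (-1.52), Tap1 (-0.61) and Psmb9 (-0.44).

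Between CD4 T cells with and without Ifng, 5 of 18 target genes fell and none rose, beside 1.38% of all genes that fell (median -0.59 against -0.02 over all genes). They were Irgm2 (-1.44), Tgtp2 (-1.34), Gbp2 (-1.14) and Gbp7 (-0.77), with edgeR adjusted p of 0.0383, 0.0124, 0.00559 and 0.0364, and Ifi47 (-0.72, adjusted p = 0.0185). In CD8 T cells 2 of 17 fell, Gbp2 (-0.85) and Irgm1 (-0.63, adjusted p = 0.0334), beside 2.76% of all genes, and none rose (median -0.21 against -0.01). No gene of either split passed by edgeR when the library was not used as a block. Whether these target genes, and the genes of the lists below called in these splits, passed with thinned cells is not given here.

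Genes that prepare cells to make IFN-γ (11, among them T-box factors and receptors for IL-12 and IL-18) were all tested between gates. Relative to CD4 T cells, CD8 T cells were higher for Eomes (3.73), Runx3 (1.05) and Il18rap (1.03) and lower for Il12rb2 (-1.26), a chain of the IL-12 receptor, beside 3.04% and 4.84% of all genes. Innate cells were higher than T cells for 5, namely Il12rb2 (1.56), Eomes (1.31), Tbx21 (1.27), which encodes T-bet, Il18rap (1.23) and Il2rb (1.21), with none lower, beside 3.73% of all genes higher. Myeloid cells were lower for 9 and higher for 1, Hlx (2.21), beside 28.8% and 24.4% of all genes, and B cells lower for 10, beside 17.3%. No gene was called between Foxp3 and CD4 T cells. Tbx21 also rose in CD4 T cells with Ifng (0.89, edgeR adjusted p = 0.0149), from 46.3 to 95.2 TMM-scaled CPM (scaled by edgeR's library factors), as did Il12rb2 (1.55, adjusted p = 0.0160), the 2 of 8 tested that passed, beside 1.29% of all genes that rose. In CD8 T cells with Ifng, Stat4 fell (-0.45, adjusted p = 0.0199) and Il2rb rose (0.39, adjusted p = 0.0284), of 10 tested, beside 2.76% and 3.91% of all genes.

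Of 7 listed cytokines that induce IFN-γ, 6 were tested, and 5 were higher in myeloid than in T cells with none lower, beside 24.4% and 28.8% of all genes. They were Ebi3 (3.78) and Il27, which encode the subunits of IL-27, Il18 (3.64), Il12b and Il15. Il12b, which encodes the p40 chain of IL-12, stood at 26.8, 320 and 0 CPM in dendritic cells of libraries 1 to 3 (5, 284 and 0 UMIs, where 3 UMIs in library 3 would be 89.2 CPM), so library 2 carried it. Its mean in every other gate was at most 3.57 CPM. CD8 T cells were lower than CD4 T cells for 2, Ebi3 (-3.72) and Il18 (-2.76), beside 4.84% of all genes. These rest on low levels, since the whole list summed to 20.7 ± 6.51 CPM in CD4 and 3.59 ± 3.14 CPM in CD8 T cells (SD, n = 3). B cells were higher than T cells for 1, Ebi3 (1.72), beside 16.1%. No gene of the list was called in the Foxp3 and innate comparisons.

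Of 7 further signalling genes, 3 were higher and 1 lower in myeloid cells (beside 24.4% and 28.8% of all genes), 2 higher and 1 lower in B cells (16.1% and 17.3%) and 1 higher and 1 lower in innate cells (3.73% and 5.62%), not all of which are named. Jak1, the kinase of the ligand-binding chain, was lower in myeloid (-1.27) and B cells (-0.64) than in T cells, and Irf8 (3.05 and 2.31) was higher. Stat2 was higher in myeloid cells (1.86). In innate cells Irf8 was higher (2.95). None of the 7 was called between CD8 or Foxp3 and CD4 T cells, and Irf8 alone rose in CD4 T cells with Ifng (0.92, edgeR adjusted p = 0.0365, beside 1.29% of all genes). Of 7 further feedback genes, 2 were lower in CD8 T cells (beside 4.84% of all genes), 1 lower in Foxp3 T cells (1.3%), 1 higher and 3 lower in innate cells (3.73% and 5.62%), 3 higher and 2 lower in myeloid cells and 1 higher and 4 lower in B cells. Cish, a SOCS family inhibitor induced through STAT5, was lower in CD8 (-1.25), innate (-1.24), myeloid (-5.97) and B cells (-5.13). Socs3, an inhibitor of gp130 cytokine signalling, was higher in myeloid cells (1.43) and lower in innate (-0.78) and B cells (-1.08). Ptpn11, the phosphatase SHP2, was lower in all 5 comparisons, with log2 differences from -1.52 to -0.98. Ptpn6, the phosphatase SHP1, was higher in innate (0.85), myeloid (1.37) and B cells (1.46), and Usp18 higher in myeloid (1.94) and lower in B cells (-1.15). In cells with Ifng, Ptpn11 rose in CD4 T cells (0.63, edgeR adjusted p = 0.0364) and Cish in CD8 T cells (1.2, adjusted p = 0.00122), beside 1.29% and 3.91% of all genes that rose.

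For each of the 6 genes, those with the most similar pattern were ranked by Pearson's r of log2(CPM + 1) over the 24 sums, centred within library, among 10396 genes. Ifng was most like Camk4 (0.95), Gm2682 (0.93) and Themis (0.93), and Ifngr1 most like Prkch (0.93), Elovl6 (0.93) and Fam189b (0.91). Ifngr2 was most like App, H2-DMb1 and Cd2ap (0.91 each) and Jak2 most like Myo1g (0.93), Stat5a (0.92) and Nrip1 (0.91). Socs1 was most like Akna (0.96), Rnf166 (0.95) and Arl6ip5 (0.94), and Irf1 most like Ist1 (0.91), Oas2 (0.88) and Zfand5 (0.88). The sums share mice and differ in depth, so these are descriptions without a test.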

How the data were processed

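Per the study's methods and the labels, the authors mapped 5′ single-cell reads to mm10 with Cell Ranger and deposited unnormalized UMI counts per gene and cell, 1 matrix per library. Cell Ranger was version 5.0.1 for library 1 and 6.1.2 for libraries 2 and 3. Libraries held 22983991, 55120460 and 3399733 UMIs. Library 1 was read with the gene order of libraries 2 and 3, with which its row totals correlated (Spearman, 0.9501 and 0.9287 across genes). Cells with under 300 UMIs, over 5000 genes or over 20% mitochondrial UMIs were left out, as in the study. Doublets were kept. Counts were summed per gate and library (at least 10 cells) and tested with edgeR 4.0.16 in R 4.3.3 (quasi-likelihood, TMM, filterByExpr, library as block because gates of a library share mice, threshold 0.05 on adjusted p). Leaving a library out left each gate with 2 sums. The fits were first tested on simulated counts. Exact intervals cover counting error only, with 3 counts as the limit for 0. Listed genes were named as up to 4 with the largest difference among those called, of 1 direction in all libraries and at least 10 CPM. For the Ifng split, 5 in each direction at 20 CPM or more were named. The gates are rebuilt from markers and are not the authors' cell types. The 6 genes, lists and tests were chosen with earlier results of these data known. DESeq2 1.42.0, other scaling, filters, gates, doublet removal and thinning were alternatives. Some genes that met these rules are not reported here.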

Additional observations from a re-analysis of the deposited data

Results flagged for a closer look

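Trbv17, a T cell receptor beta variable gene, was singled out because its difference between cells with and without Ifng differed between CD8 and CD4 T cells (edgeR interaction log2 difference CD8 minus CD4 -2.78, adjusted p = 0.0248). In CD8 T cells it stood at 7.90 TMM-scaled CPM with Ifng and 52.7 without. Receptor variable genes follow clones, and the clones of each mouse were not analysed here, so this is given as a value.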

How the results depend on the processing

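Of 556 recomputed differences of the 6 genes, 479 kept their direction and their side of the threshold, 17 lost a call, 18 gained one and 42 changed sign, 41 of these without passing the threshold. Ifng passed under all 13 alternatives in the Foxp3 and innate comparisons. Thinned to 1000 UMIs per cell, the CD8 minus CD4 difference of Ifng was -0.55 and passed. The causes of these changes were not tested unless the construction shows them (fewer sums or fewer positive cells).

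The library entered the fits as a block, since gates of a library come from the same mice. Without this block the Ifngr1 difference with Ifng was -0.54 in CD4 and -0.60 in CD8 T cells and no longer passed. The CD8 minus CD4 calls of Ifngr2 (-1.55) and Jak2 (-1.71), and those of Jak2 in the innate and B comparisons and of Socs1 in the myeloid one, were also lost without it. Called pairs fell to 5 for Jak2, 5 for Socs1 and 8 for Irf1. Genes called fell from 819 to 233 (CD8 minus CD4), 282 to 33 (Foxp3), 972 to 553 (innate), 3468 to 2148 (B), 194 to 0 (CD4 split, by edgeR), 594 to 0 (CD8 split, by edgeR) and 9 to 0 (difference of splits, by edgeR). Signs that changed without the block were Socs1 in the innate comparison (0.064), Irf1 in the CD4 split (0.027), and Ifngr1 (-0.035), Ifngr2 (-0.024) and Jak2 (0.12) in the difference of the splits.

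Leaving out each library in turn, the CD4 split difference of Ifngr1 ranged from -0.73 to -0.51, CD8 minus CD4 from -0.18 to 0.095 for Ifngr1 and -0.074 to 0.17 for Socs1, and Foxp3 minus CD4 from -0.98 to 0.12 for Ifngr2. The innate comparison ranged from -2.69 to 0.81 for Ifngr2 and -0.062 to 0.14 for Irf1, the myeloid one from -0.0017 to 0.0030 for Jak2, and the CD4 split from -0.066 to 0.071 for Irf1. The difference of the splits ranged from -0.085 to 0.18 for Ifngr1, -0.17 to 0.15 for Jak2, -0.039 to 0.17 for Socs1 and -0.17 to 0.025 for Irf1. Called pairs ranged from 16 to 26 for Ifng, 7 to 19 for Jak2, 4 to 11 for Socs1 and 8 to 16 for Irf1. Without library 2 there are no macrophages, so 28 pairs remain and the myeloid comparison has no value as designed. Ifng in the myeloid comparison was -9.30 without library 1. Genes called were 400 and 492 (CD8 minus CD4, without libraries 1 and 2), 138 to 216 (Foxp3), 448 to 860 (innate), 1901 to 3546 (B), 63 to 310 (CD4 split), 103 to 476 (CD8 split) and 0 to 9 (difference of splits).

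With thinned cells the Ifngr1 splits were -0.37 and -0.15, Jak2 in the CD4 split 0.046, Irf1 in the CD8 split 0.15, Socs1 and Irf1 in the innate comparison 0.0057 and -0.24, and Jak2 and Irf1 in the difference of splits 0.018 and 0.50. Genes called were then 494 (CD8 minus CD4), 413 (innate), 2510 (myeloid, from 5535), 1728 (B), 47 and 91 (splits) and 0 (difference of splits, by edgeR). With DESeq2, Ifngr1 in the CD4 split was -0.58, Irf1 there 0.00071, Ifngr2 0.16 in the innate comparison and -0.028 in the difference of splits, and genes called were 45 and 213 (splits) and 5 (their difference). With strict gates, Ifngr2 and Socs1 in the innate comparison were 0.49 and 0.0045, Jak2 in the myeloid comparison 0.018, Socs1 and Irf1 in the difference of splits -0.022 and 0.18, Socs1 pairs 16 and genes called in the CD4 split 129. With loose gates, Ifngr2 was 0.70 in the innate comparison and -0.36 in the difference of splits, where Jak2 was 0.0097 and 4 genes were called, and Irf1 in the CD4 split was 0.073. Without the filter on low counts, Irf1 in the innate comparison was -0.074 and 496 genes (Foxp3) and 84 genes (difference of splits) were called. With all cells, Ifngr1 and Ifngr2 in the difference of splits were -0.020 and -0.036, and with doublets removed 17 genes were called there. Leaving out macrophages gave 0.52 for Jak2, and 0.043 without library 2 as well. The share of cells with Ifng was 24.7% and 29.2% (CD4, CD8) unthinned and 9.58% and 8.25% at 500 UMIs.

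NK, gamma delta and dendritic sums held as few as 17, 32 and 11 cells, and Ifngr2 in T cells 0 to 39 UMIs a sum. These limit what could be detected. Only 4 mice in 3 libraries were sampled.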
